A study of Mus musculus with 11 samples.

Results

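The unperturbed transcriptome of mouse LSK cells was described from the 4 wild-type (WT) libraries of a series of 11. LSK cells are bone marrow cells that lack the surface antigens of mature blood lineages (Lin-) and carry cKit and Sca-1. The WT libraries were chosen by their genotype label alone, and no contrast between genotypes was made. The other libraries came from 3 mice labelled Phf6 knock out (KO) and 4 mice labelled Phf6R274X Tg (Tg). All 11 mice were of the strain C57BL/6, no treatment was given in the labels, and age, sex, batch and the promoter of the transgene were not given either. Cells were sorted on a BD FACSAria II, RNA was extracted for individual mice, and NEB Ultra libraries were sequenced as paired reads of 150 bases on a NextSeq 500. Each value below covers the mixture of cells in a sorted sample, so fewer cells of a type and less RNA per cell cannot be told apart.

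Haematopoietic stem cells sit at the top of the blood lineages, and within the LSK gate they are outnumbered by multipotent progenitors that already lean towards lymphoid, myeloid or megakaryocyte and erythroid fates. Such leaning is seen as low expression of genes of several lineages in 1 population, often called lineage priming. Kit and Flt3 encode growth factor receptors, Cd34 a surface sialomucin, Meis1 a homeobox partner of Hox proteins, and Mpo the myeloperoxidase of granule-forming myeloid cells.

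The WT libraries held 30707831, 31008975, 31130936 and 20990446 counts, here and below in the order of replicates 1 to 4. Levels of 1 gene across libraries are given in CPM (the count divided by the library's TMM-scaled total), and levels of different genes are set side by side in TPM (which also divides by the exon length of the gene). A count of 0 allows a level of up to 3 counts, 0.0964 to 0.143 CPM depending on the library, which covers counting error only. Xist, the RNA that coats the inactive X chromosome of females, was present in every WT library at 48.8, 49.7, 52.2 and 54.2 CPM. The Y-linked gene Ddx3y stood at 39.8, 43.6, 0.0317 and 8.39 CPM, and Uty at 32.2, 47.7, 0.0317 and 3.403 CPM. Thus 3 of the 4 libraries held reads of Xist and of the Y chromosome although the labels name individual mice, and replicate 3 alone was near 0 for the Y-linked genes. What lies behind this was not tested, and without those 3 libraries only 1 WT library would remain, so that no spread could be given. Replicate 2 was highest for the ribosomal RNA gene CT010467.1, with 1270.0, 5599, 1385 and 1322 CPM, up to 0.587% of its counts.

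A total of 12764 of the 55291 listed gene symbols reached 1 CPM in all 4 WT libraries, and another 2027 reached it in 1 to 3 of them. In all, 28401 symbols had no count in any WT library. Of 21830 protein-coding genes, 11202 were detected by this rule (51.3%) and 5975 were at 0 throughout. The 51.3% is the share to set beside each count of detected list members below. Among other classes, 154 lincRNA genes were detected, and 25 immunoglobulin genes were detected in all 4 libraries while 158 reached 1 CPM in any. The mean level of most expressed protein-coding genes lay between 10 and 100 CPM (6872 genes), with 2482 genes between 1 and 10 CPM, 2311 between 100 and 1000 CPM and 57 above. The 20 most abundant genes took 7.59 ± 0.575% of the counts (SD, n = 4), the 100 most abundant took 16.5 ± 0.870%, and 1018 to 1105 genes together made up 50% of a library.

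Non-coding and housekeeping RNAs took the largest shares of the counts. Rn7sk, the 7SK small nuclear RNA that holds back the elongation kinase P-TEFb, averaged 15492 ± 1832 CPM (SD, n = 4), with 13499, 16219, 14581 and 17669 CPM in the 4 libraries. Eef1a1, the translation elongation factor that delivers aminoacyl-tRNA, followed at 9540.1 ± 711 CPM, then the mitochondrial cytochrome oxidase gene mt-Co1 at 5760.4 ± 805 CPM, the nuclear long non-coding RNA Malat1 at 5207 ± 1429.6 CPM and cytoplasmic actin, Actb, at 5048 ± 522 CPM. Translation genes were prominent further down, with Eef2 at 3816 ± 285 CPM, the poly(A)-binding protein gene Pabpc1 at 2790.3 ± 226 CPM, and the ribosomal genes Rpl4 and Rpsa at 2273 ± 323 and 1890.4 ± 175 CPM. Ribosomal protein genes filled 28 of the 100 highest places, and 80 of 83 were detected.

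Only a few of the 20 most abundant genes are known for roles in blood or in cell division. They were Mpo at 1871 ± 739 CPM and the cell cycle kinase Cdk6 at 1779 ± 260.3 CPM. The AP-1 transcription factor genes Jun, Fos and Fosb, which are switched on within minutes of a stimulus, also ranked here, with mean levels of 2376, 1821 and 1747 CPM. The chaperone Hsp90ab1, the tubulin Tubb5, mt-Cytb, the RNA helicase Ddx5 and the membrane protein Serinc3 completed the group. Serinc3 had the smallest relative spread among them, with 1914, 1883, 1828 and 1903 CPM. CT010467.1 varied most relative to its mean, followed by Fos, Jun, Mpo, Fosb and then Malat1 (4597, 6792, 3542 and 5896 CPM).

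**Figure D1:**
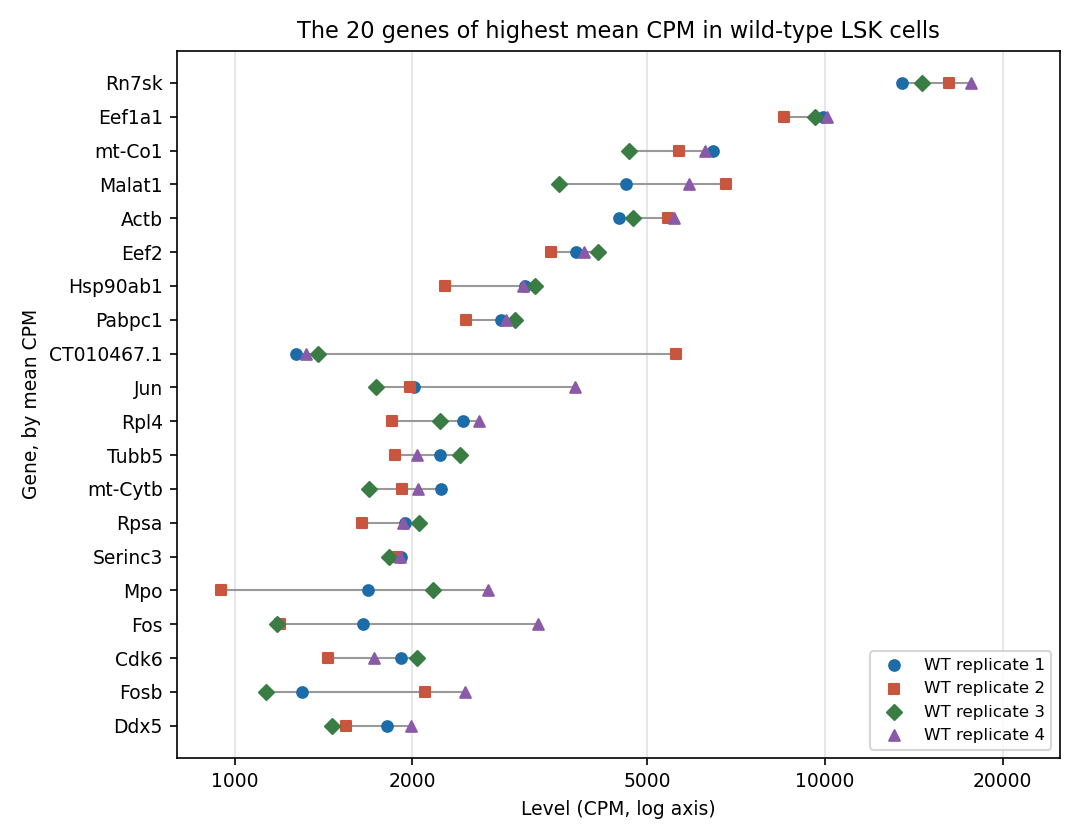
The 20 genes of highest mean level in the 4 WT libraries, predicted gene models left out; each marker is the CPM of 1 library on a log axis and the grey line joins the lowest and the highest library. Rn7sk lies above all others at 15492 CPM, and CT010467.1 shows replicate 2 far to the right of the other libraries.

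On the length-corrected scale, short non-coding RNAs moved up. Rn7sk (chromosome 9, 78175303 to 78175633, minus strand, GRCm38) took 146311 ± 11620.1 TPM, and Rmrp, the RNA of the RNase MRP particle, took 17545 ± 2636 TPM. Among protein-coding genes the highest included Eef1a1 with 12003 ± 1006 TPM and Actb with 5894 ± 417 TPM, together with mt-Co1, Rplp1, mt-Cytb and B2m, the light chain of major histocompatibility complex class I molecules (4226 ± 307 TPM). The immunoglobulin light chain gene Igkc also entered the 20 highest at 4785 ± 5852 TPM, with an SD larger than its mean. Of the 13 protein genes of the mitochondrial genome, 7 were detected, and 6 were under 1 CPM in all 4 libraries, mt-Nd3 among them (0.731, 0.553, 0.666 and 0.623 CPM). Genes of this genome share reads with near-identical nuclear copies, so the low values are uncertain, and the part of such copies was not tested.

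The marker genes Kit, Cd34, Flt3, Meis1 and Mpo were all present in each library. Of these only Kit encodes an antigen of the sort, so their presence is no test of the label. Kit (chromosome 5, 75574916 to 75656722, plus strand, GRCm38) stood at 802, 667, 674 and 773 CPM. These values lie close together, with an SD of 0.14 on the log2 scale. Cd34 (chromosome 1, 194938819 to 194961279, plus strand) stood at 930.2, 579, 905 and 802 CPM, lowest in replicate 2. Flt3 (chromosome 5, 147330741 to 147400489, minus strand) had 525, 338, 328 and 429 CPM, higher in replicates 1 and 4 than in the other two. Meis1 (chromosome 11, 18879817 to 19018985, minus strand) had 356, 287, 242 and 300.5 CPM, again highest in replicate 1.

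Mpo (chromosome 11, 87793581 to 87804413, plus strand) stood at 1681, 948, 2171 and 2683 CPM, and its libraries differed up to 2.83-fold. Per length, Mpo was the highest of the markers, 1704 ± 632 TPM, followed by Cd34 at 347 ± 76.3, Kit at 257 ± 28.1, Flt3 at 206 ± 51.9 and Meis1 at 88.5 ± 16.3 TPM. The SDs of Cd34, Kit and Flt3 overlap in this order. Mpo ranked 39 of 21830 protein-coding genes by mean TPM, Kit 379 and Meis1 1524. The gene of the other sorting antigen, Ly6a (Sca-1; chromosome 15, 74994877 to 74998031, minus strand), was lower, at 66.2 ± 13.4 TPM and rank 2217, with 20.3, 31.8, 21 and 29.2 CPM.

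Genes of early progenitors had the highest median of the lineage lists. All 20 listed members were detected, where 51.3% of protein-coding genes were, and their median level was 212 TPM, against 2.12 TPM for all protein-coding genes and 26.1 TPM for those detected. Adgrg1, an adhesion receptor (GPR56) of stem and progenitor cells, led with 857 ± 84.9 TPM. Lmo2, the LIM-domain bridge of the TAL1 complex, followed at 622 ± 65.6 TPM, and Adgrl4, another adhesion receptor, at 529 ± 115 TPM. The median SD of the members between the WT libraries was 0.151 on the log2 scale. It was 0.161 for protein-coding genes averaging 10 CPM or more. An SD over 0.5 was seen for 1 of the 20 members. The share was 9.99% of all genes averaging 1 CPM or more and 3.26% of protein-coding genes averaging 10 CPM or more. The mean log2 level of the list moved by 0.29 over the 4 libraries, and by 0.16 without replicate 1 and 0.15 without replicate 2.

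Genes linked to long-term stem cells were present at a lower level. Of 26 members 24 were detected, where 51.3% of protein-coding genes were, with a median of 17.2 TPM. The highest were Angpt1, a ligand of the Tie2 receptor, at 251 ± 69.5 TPM, and Hlf, a bZIP factor of stem cells, at 138 ± 43.1 TPM. Myct1 and Gata2 followed at 118 ± 16.6 and 108 ± 15.3 TPM. Procr, the protein C receptor used to enrich stem cells by sorting, was low at 29.5 ± 8.03 TPM, with 25.1, 15.2, 15.4 and 20.5 CPM, and Mecom, the zinc finger factor EVI1, stood at 23.7 ± 6.57 TPM.

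Hlf was among the stem cell genes that differed between libraries, with 386, 252, 191 and 341 CPM. Replicate 1 was highest and replicate 3 lowest. Of the 25 stem cell genes averaging 1 CPM or more, replicate 1 was highest for 12 and replicate 3 lowest for 15. For this and the other lists, how often each library was highest or lowest over all genes is not given here. The mean log2 level of the list ranged over 0.53, and over 0.16 without replicate 3. Of the 25 genes, 5 had an SD over 0.5, against 9.99% of all genes.

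Genes tied to lymphoid priming were mostly detected, and which cells of the mixture held them was not tested. Of 20 listed genes 19 were detected, where 51.3% of protein-coding genes were. The median of the list was 50.5 TPM, or 84.0 TPM when the longest transcript gave the length. Dntt, the terminal transferase of antigen receptor joining (chromosome 19, 41029275 to 41059525, plus strand), ranked 123 of all protein-coding genes at 699 ± 218 TPM. Its level was 668, 548, 314 and 506 CPM, lowest in replicate 3. The zinc finger factor Ikzf1, needed for lymphoid fate, reached 259 ± 27.2 TPM, and the receptor Gpr171 199 ± 50.3 TPM. Il7r, the interleukin 7 receptor of committed lymphoid progenitors, was lower at 15.6 ± 11.7 TPM and uneven, with 16.01, 47.7, 6.66 and 22.96 CPM and its highest value in replicate 2. Replicate 3 was lowest for 17 of the 20 members, and the range of the list's mean log2 level, 0.84, shrank to 0.25 without that library.

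All 20 granulocyte-monocyte progenitor genes were detected, where 51.3% of protein-coding genes were, at a median of 80.3 TPM. Besides Mpo, Calr, a chaperone of the endoplasmic reticulum, reached 1265 ± 400.1 TPM, Plac8 889 ± 196 TPM, and the granule protease genes Ctsg, Elane and Prtn3 456 ± 188, 371 ± 283 and 333 ± 126 TPM. Elane, the neutrophil elastase gene, had 33.7, 119.7, 70.99 and 252 CPM, so that replicate 4 held 7.47 times the level of replicate 1. Prtn3, proteinase 3, had 98.6, 163, 200.1 and 284 CPM in the same direction. Replicate 4 was highest for 15 of the 20 genes, and 13 of them had an SD over 0.5, against 9.99% of all genes. The mean log2 level of the list ranged over 1.14, and over 0.54 without replicate 4.

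Genes of the erythroid and megakaryocyte branches were partly detected, where 51.3% of all protein-coding genes were. Among 17 erythroid genes found, 11 were detected, with a median of 15.3 TPM, led by the carbonic anhydrases Car2 and Car1 at 519 ± 106 and 163 ± 118 TPM and the transferrin receptor Tfrc at 59.7 ± 13.1 TPM. Gata1, the master factor of this branch, stood at 11.6, 21.9, 21.5 and 15.3 CPM, Klf1 at 3.62, 12.6, 4.47 and 9.54 CPM and the erythropoietin receptor gene Epor at 2.45, 8.24, 1.84 and 6.14 CPM. Replicate 2 was highest for 11 of the 16 erythroid genes averaging 1 CPM or more. The beta-globin gene Hbb-bs averaged only 11.8 ± 4.52 CPM.

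Of 18 megakaryocyte genes 13 were detected, where 51.3% of protein-coding genes were, with a median of 16.9 TPM. The general factors Rap1b, Plek and Fli1 led at 264 ± 9.22, 233 ± 44.5 and 213 ± 15.8 TPM, all widely expressed in blood cells. Itga2b, the integrin CD41, had 69.5, 118, 119 and 77.6 CPM, higher in replicates 2 and 3, and the platelet chemokine gene Pf4 had 8.13, 31.2, 10.6 and 13.9 CPM, highest in replicate 2. The platelet glycoprotein gene Gp9 lay at 6.89 ± 0.878 CPM. The list's mean log2 level ranged over 0.55, over 0.20 without replicate 2 and over 0.35 without replicate 1.

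Mast cell, basophil and eosinophil genes were detected for 11 of 16 members, where 51.3% of protein-coding genes were, at a median of 13.2 TPM. The basophil proteases Prss34 and Mcpt8 and the eosinophil granule protein gene Prg2 were the highest, at 137 ± 121, 128 ± 74.8 and 128 ± 86.5 TPM, each with a large SD. Prss34 had 48.6, 27.3, 14.3 and 127 CPM. The mast cell protease gene Cpa3 was steadier at 39.6, 30.9, 37.02 and 58.002 CPM, and Fcer1a, the alpha chain of the IgE receptor, had 7.62, 3.63, 9.01 and 13.7 CPM. Replicate 4 was highest for 9 of the 12 genes averaging 1 CPM or more, and without it the range of the mean log2 level fell from 1.41 to 0.58; without replicate 3 it was 0.87.

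Markers of other cells that a sorted sample can hold were read as whole lists, beside the 51.3% of protein-coding genes detected. Of 20 monocyte and dendritic cell genes 15 were detected, with a median of 38.6 TPM (25.4 TPM without replicate 4), led by Cd74, the class II invariant chain, at 379.6 ± 443 TPM, then Flt3, Klf4 and H2-Ab1. Ccr2, the receptor that guides monocytes out of marrow, had 120.0, 168, 58.5 and 151 CPM, while Cx3cr1 stayed at 3.49, 5.84, 6.31 and 9.44 CPM and Ly86 at 6.005, 10.7, 7.55 and 16.01 CPM. Macrophage genes were detected for 15 of 17, at a median of 10.5 TPM (16.2 TPM by the longest transcript). Among them were Apoe at 160.4 ± 36.02 TPM, Cd68 at 35.3 ± 6.08, C1qa at 27.7 ± 25.8 and Adgre1, the F4/80 antigen, at 6.37 ± 3.35 TPM. The macrophage list ranged over 1.42 in mean log2 level, and over 0.49 without replicate 3, the lowest library for 10 of its 15 members that averaged 1 CPM or more.

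Mature neutrophil genes were sparse: 5 of 16 were detected, where 51.3% of protein-coding genes were, and 8 at a minimum of 0.5 CPM. The median was 3.94 TPM, or 2.32 TPM without replicate 4. S100a8 and S100a9, the subunits of calprotectin, split the libraries into pairs, with 27.8, 2.18, 2.79 and 40.2 CPM and 37.8, 3.41, 3.08 and 37.1 CPM. Replicates 1 and 4 were high for both genes and replicates 2 and 3 low, a split read off these same values. The secondary granule genes Ngp and Ltf did not follow that split, with 8.07, 12.2, 1.52 and 13.3 CPM and 1.43, 3.29, 0.856 and 3.36 CPM. Padi4, the peptidylarginine deiminase of neutrophils, was present throughout at 57.1, 38.8, 66.4 and 58.5 CPM.

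T and natural killer cell genes were low, with 7 of 22 detected, where 51.3% of protein-coding genes were. Another 7 were under 1 CPM in every library, and the median was 1.10 TPM. The T cell receptor partners Cd3d, Cd3e and Cd3g were at 0.349, 0.676, 0.0317 and 0.383, 0.222, 1.998, 0 and 0 and 0.318, 0.646, 0 and 0.288 CPM, so Cd3e was above 1 CPM in replicate 2 alone. Nkg7, a granule membrane protein that also belongs to the granulocyte-monocyte list here, was the exception at 249.6 ± 53.6 TPM, ahead of the kinase Lck at 29.1 ± 8.21 TPM. Of 18 marrow stroma and vessel genes 7 were detected (3 at a minimum of 2 CPM), at a median of 0.501 TPM. The niche chemokine Cxcl12 lay at 0.604, 2.06, 0.349 and 0.863 CPM, the leptin receptor Lepr at 0.0953, 1.14, 0.381 and 0.2397 CPM and Pdgfra at 0.0318, 0.277, 0 and 0 CPM, while Pdgfrb stood apart with 84.3, 46.8, 86.9 and 64.95 CPM. Acan and Bglap had no count in any WT library.

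As a negative reference, 18 genes of liver, pancreas, heart, brain, skin, lung, kidney and gut were read, and none reached 1 CPM in all 4 libraries. Of these, 12 had no count in any WT library, among them Alb, Ttr, Ins1, Ins2, Krt5 and Sftpc. The highest of the others was Syp, a synaptic vesicle gene, at 1.27, 0.769, 0.508 and 0.575 CPM. Antigens used to remove mature cells, as far as they are single genes, were detected for 7 of 12, where 51.3% of protein-coding genes were. The summed level of these 12 was 467, 611, 390.4 and 573 CPM, of which Ptprc, the CD45 gene that also encodes B220, took 72.3% to 88.8% of the counts. Cd4 had 3.11, 1.51, 1.21 and 3.36 CPM and Cd8a 0.0953, 3.38, 0 and 0.911 CPM, and replicate 2 was highest for Cd8a.

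**Figure D2:**
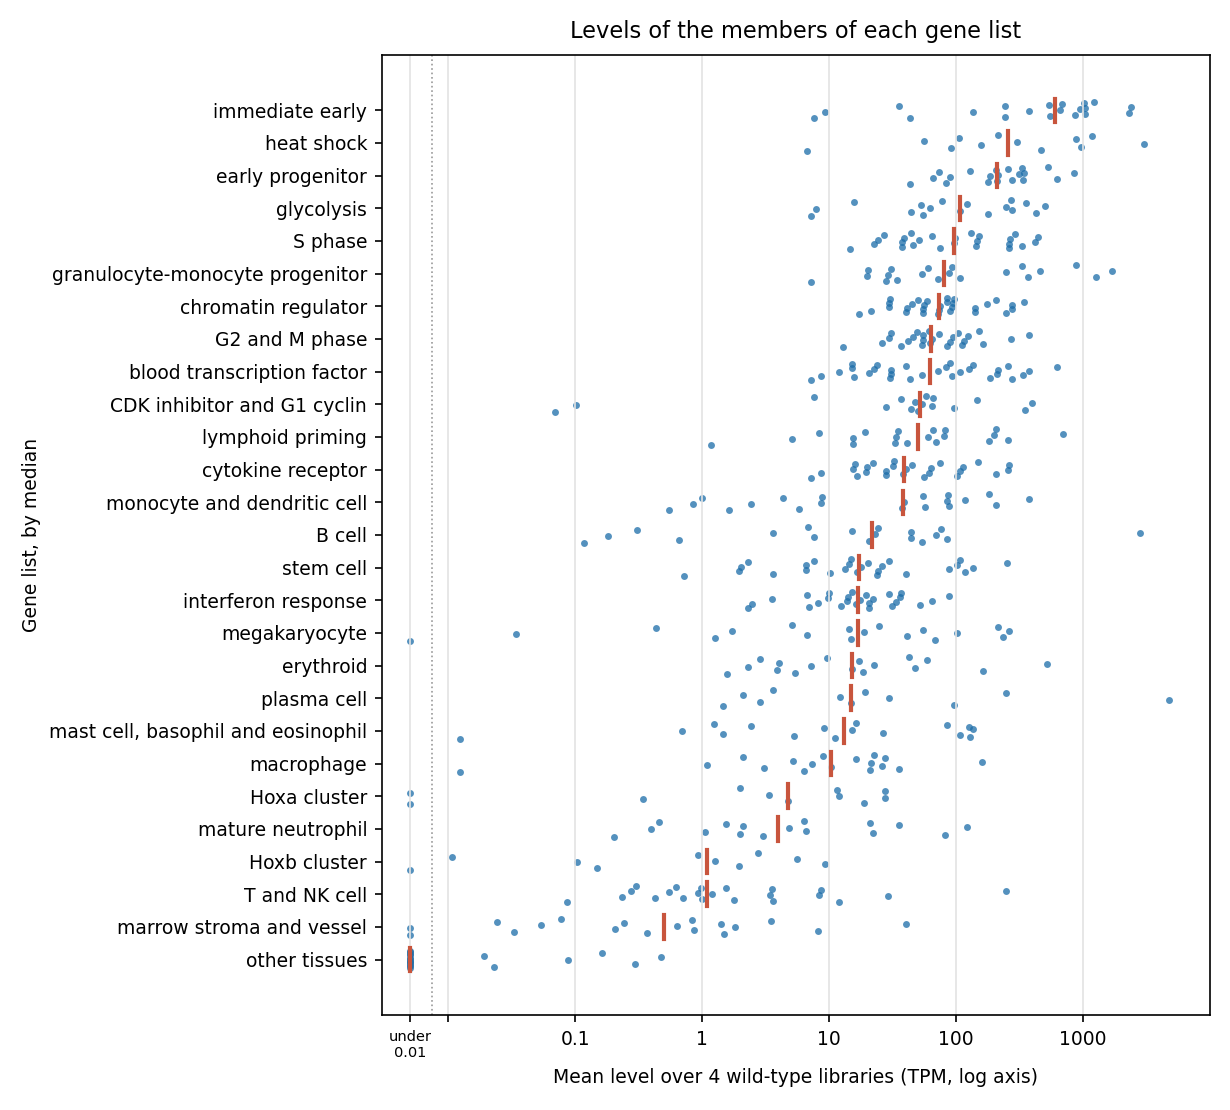
Level of each gene programme in WT cells; each dot is the mean TPM of 1 listed gene over the 4 libraries on a log axis (values under 0.01 at the left edge), red bars are list medians, and lists are ordered by median. Medians run from 602 TPM for immediate early genes and 212 TPM for early progenitor genes down to 0.501 TPM for stroma and vessel and 0 for other tissues.

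All 30 listed transcription factors of blood were detected, where 51.3% of protein-coding genes were, at a median of 62.8 TPM. The highest were Lmo2 (622 ± 65.6 TPM), Myc (377 ± 63.4 TPM), Etv6 (339 ± 45.7 TPM) and Myb (275 ± 8.15 TPM). Runx1, needed for stem cells to arise, varied little, with 319, 337, 312 and 324 CPM, and so did Tal1, with 132, 118, 125 and 128 CPM. Gata2 was higher in replicates 2 and 4, with 156, 217, 164 and 212 CPM. Per length, Tal1 and Runx1 lay at 90.3 ± 6.61 and 84.2 ± 3.64 TPM.

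Every one of 26 cytokine and chemokine receptor genes was detected as well, where 51.3% of protein-coding genes were. The median was 39.3 TPM. Cxcr4, the receptor that holds stem cells in marrow, was the highest at 262 ± 32.1 TPM, which differed from Kit (257 ± 28.1 TPM) by less than either SD. Flt3 and Ifngr1, a chain of the interferon gamma receptor, came next at 206 ± 51.9 and 150.3 ± 23.8 TPM. The mean log2 level of the list ranged over 0.27, and over 0.12 without replicate 1.

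The Hox clusters, which set stem cell self-renewal together with Meis1, were low and uneven along their length. Of 11 Hoxa genes 7 were detected, where 51.3% of protein-coding genes were, with a median of 4.74 TPM (8.72 TPM by the longest transcript). Hoxa9 and Hoxa7 led at 27.8 ± 5.18 and 27.5 ± 5.68 TPM, Hoxa5 and Hoxa6 followed at 18.7 ± 4.01 and 12.1 ± 4.199 TPM, and Hoxa11 and Hoxa13 had no count. Of 10 Hoxb genes 4 were detected, Hoxb4, Hoxb3, Hoxb2 and Hoxb5, at 9.24 ± 0.921, 5.62 ± 1.398, 2.76 ± 1.08 and 1.94 ± 1.27 TPM. Hoxb5, used as a marker of long-term stem cells, had 3.24, 1.05, 1.396 and 1.103 CPM, highest in replicate 1.

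Replicate 1 was the highest library for all 8 Hoxa genes and all 4 Hoxb genes that averaged 1 CPM or more. The share of all genes highest in replicate 1 is not given here. Hoxa9 stood at 59.6, 41.1, 45.6 and 51.4 CPM and Hoxa3 at 12.5, 7.66, 5.68 and 10.4 CPM. The mean log2 levels of the clusters ranged over 0.63 and 0.67, and over 0.33 and 0.11 without replicate 1.

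Genes of the dividing cell were all detected, where 51.3% of protein-coding genes were. These were 25 of 25 for S phase at a median of 97.0 TPM, and 26 of 26 for G2 and M phase at 63.8 TPM. Pcna, the sliding clamp of replication, had 346, 335, 359 and 326 CPM, and Mcm3, a subunit of the replicative helicase, had 431, 317, 470.5 and 362 CPM. Mcm6 was the highest helicase subunit at 417 ± 70.4 TPM, against 331 ± 65.6 TPM for Mcm3 and 289.7 ± 56.6 TPM for Mcm7. Mki67 and Top2a reached 274.02 ± 39.3 and 376 ± 44.8 TPM, with 983, 802, 749.9 and 981 CPM for Mki67. No member of either list had an SD over 0.5, which 3.26% of protein-coding genes averaging 10 CPM or more had. In lists of this size that is near the share and is not read as a result. Replicate 3 was highest for 20 of the 25 S phase genes, by small steps: the mean log2 level of the list ranged over 0.28, and over 0.08 without that library.

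Of 16 genes for inhibitors of cyclin-dependent kinases and for G1 cyclins and kinases 14 were detected, where 51.3% of protein-coding genes were. The median was 52.2 TPM. Cdk6 and Cdk4 stood at 399.7 ± 66.7 and 351 ± 71.5 TPM and the cyclin gene Ccnd2 at 145 ± 14.6 TPM. The inhibitor genes were lower: Cdkn1b (p27) at 64.9 ± 13.9 TPM, Cdkn1a (p21) at 47.3 ± 17.5 and Cdkn1c (p57), linked to stem cell quiescence, at 7.64 ± 2.44 TPM. Cdkn1a had 34.8, 52.9, 81.05 and 45.8 CPM, highest in replicate 3.

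Immediate early genes had the highest median of all lists, 602 TPM, and all 20 were detected, where 51.3% of protein-coding genes were. Fos had 1648, 1193, 1179 and 3264 CPM, Jun 2013, 1982, 1733 and 3778 CPM and Fosb 1301, 2099.8, 1128 and 2458 CPM. In each case replicate 4 was highest, and it held 2126 CPM of Zfp36, an mRNA decay factor, against 893, 877 and 770.1 CPM in replicates 1 to 3. The summed level of the list was 11082, 12029.6, 9659 and 22698 CPM. Replicate 4 was highest for 19 of the 20 genes and 16 had an SD over 0.5, against 9.99% of all genes. The mean log2 level of the list ranged over 1.21, and over 0.39 without replicate 4.

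Heat shock genes were detected for 11 of 12, where 51.3% of protein-coding genes were, at a median of 259 TPM. They were high for the constitutive members and uneven for the inducible ones. Hsp90ab1 and Hspa8 stood at 3057 ± 488 and 1177 ± 143 TPM. Hspa1a, an inducible HSP70 gene, had 92.96, 111, 35.5 and 164 CPM and its neighbour Hspa1b, a near-identical copy that shares reads with it, 130.4, 159, 43.01 and 239 CPM, both lowest in replicate 3 and highest in replicate 4. Hspa5, the chaperone BiP of the endoplasmic reticulum, had 767, 1532, 925 and 2057 CPM. The list's range of 1.001 in mean log2 level was 0.51 without replicate 3 and 0.60 without replicate 4.

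Interferon response genes were detected for 25 of 26, where 51.3% of protein-coding genes were. Their median was a modest 17.0 TPM, and none exceeded 100 TPM. Bst2, also called tetherin, and the guanylate-binding proteins Gbp2 and Gbp3 were the highest at 88.8 ± 30.8, 65.2 ± 11.4 and 52.5 ± 10.5 TPM. Ifit2 was even at 40.03, 44.7, 46.3 and 39.5 CPM, whereas Ifit1 and Ifit3 stayed at 3.43, 5.196, 6.92 and 7.53 and 0.5401, 1.54, 1.59 and 1.49 CPM. Replicate 1 was lowest for 19 of the 26 genes, and the range of the mean log2 level, 0.71, was 0.29 without it.

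Glycolysis genes were detected for 17 of 17, where 51.3% of protein-coding genes were. Their median was 107 TPM (169 TPM by the longest transcript). Gapdh, Ldha and Pkm, which act late in the pathway, were the highest at 501 ± 86.99, 430.2 ± 107 and 354 ± 72.9 TPM. Hexokinase genes at its start were lower, with Hk1 at 107 ± 16.9 and Hk2 at 52.8 ± 18.4 TPM. Replicate 3 was highest for 13 of the 17, among them Ldha with 479, 347, 585 and 400.1 CPM. The range of the mean log2 level was 0.48, 0.23 without replicate 2 and 0.31 without replicate 3.

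Chromatin regulators were the most even list by the range of the mean log2 level and by the median SD of its members, 0.130. All 30 were detected, where 51.3% of protein-coding genes were, at a median of 74.3 TPM. No member had an SD over 0.5, against 3.26% of protein-coding genes averaging 10 CPM or more. With so small a share, finding none among 30 genes is near it and is not read as evenness. The mean log2 level of the list ranged over 0.10 (0.03 without replicate 2). Chd4, the motor of the NuRD complex, was the highest at 342 ± 24.6 TPM, followed by the maintenance methyltransferase gene Dnmt1 at 279 ± 61.7, the cohesin subunit gene Rad21 at 274.4 ± 23.96 and Idh2 at 250.4 ± 43.6 TPM. The de novo methyltransferase Dnmt3a lay at 29.7 ± 3.43 TPM. Phf6, the gene altered in the other genotypes and a chromatin protein with plant homeodomain fingers (X chromosome, 52912266 to 52956943, plus strand), ranked 2793 of 21830 at 54.9 ± 8.59 TPM in WT, and its SD on the log2 scale was 0.16.

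The spread between the WT libraries was small for most genes and large for a few. Over 9135 protein-coding genes averaging 10 CPM or more, the median SD of log2(CPM + 0.5) was 0.161, and the middle 90% of genes lay between 0.0588 and 0.416. The median coefficient of variation was 11.3%, against 2.61% from counting alone, and for 72.5% of the genes it was more than 3 times what counting gives. An SD over 1 was seen for 76 genes (0.832%), and an SD under 0.1 for 1804 (19.7%). Across genes, which are not independent replicates, Spearman correlations between the libraries were 0.960 to 0.979. The common biological coefficient of variation fitted by edgeR was 0.309 in WT, and 0.233 and 0.259 in KO and Tg.

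**Figure D3:**
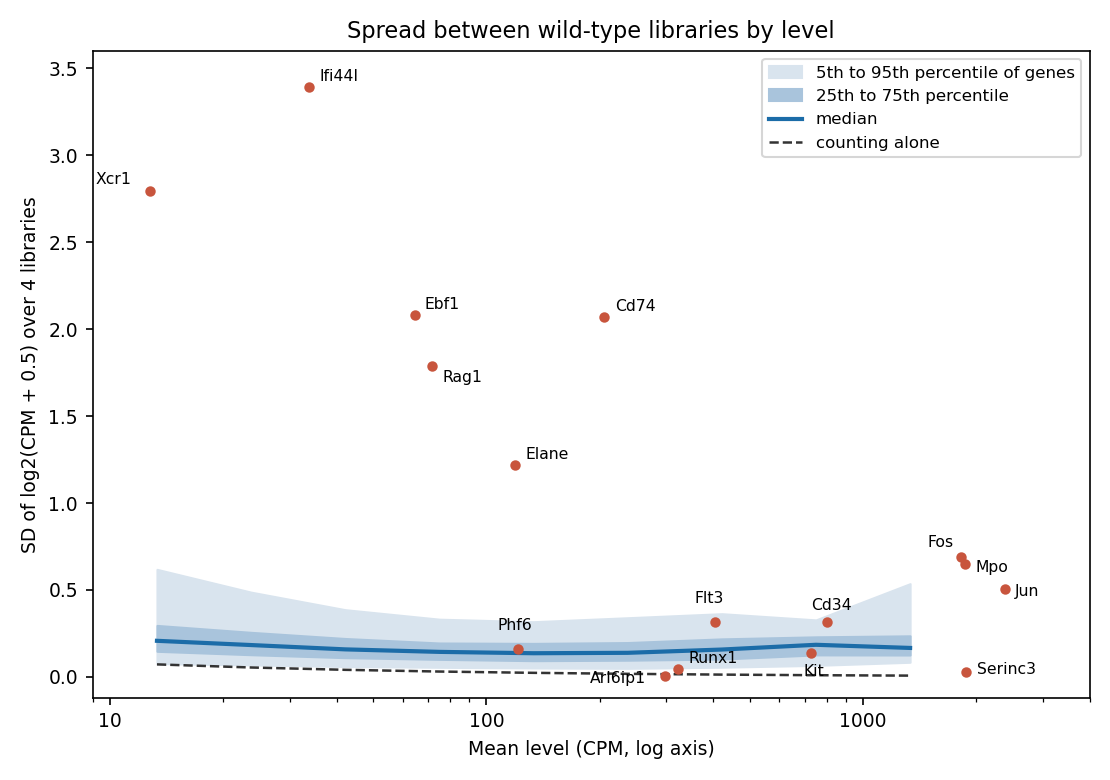
SD of log2(CPM + 0.5) over the 4 WT libraries against mean CPM (log axis) for protein-coding genes; the line is the median, the ribbons hold the middle 50% and 90% of genes, the lower line is the spread that counting alone gives, and named genes are marked. Most genes stay near the median of 0.161, while Ifi44l, Xcr1, Ebf1, Cd74 and Rag1 lie above the wider ribbon.

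The steadiest genes were in many cases ones of general upkeep. Arl6ip1, an endoplasmic reticulum shaping protein, had 297, 297, 298 and 296 CPM, the smallest SD of all. Pex7, the peroxisomal import receptor, had 45.6, 45.9, 45.7 and 45.97 CPM and the checkpoint kinase Atr 119, 118, 119.7 and 119 CPM. Also among the 10 steadiest were Setd1b, a histone H3 lysine methyltransferase, Chd8, a chromatin remodeller, the tyrosine kinase Abl1, Alg8, Mtfr1l, Wwp2 and Gabarapl2, and in none of these did the libraries differ by more than 1.03-fold.

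At the other end, the largest SD belonged to Ifi44l, an interferon-induced gene, with 3.02, 40.8, 0.0317 and 91.03 CPM. Other genes among the 10 of largest SD were Y-linked (Uty, Ddx3y, Kdm5d and Eif2s3y). The replication-dependent histone gene Hist1h4m was present in replicates 1 to 3 and near absent in replicate 4, with 58.9, 50.02, 68.9 and 0.623 CPM. Hmga1b, a near-identical copy of another gene and therefore uncertain in its share of reads, had 0.5401, 16.5, 23.8 and 0.863 CPM. The remaining 3 were Xcr1, a chemokine receptor of cross-presenting dendritic cells, at 1.11, 42.1, 0 and 7.77 CPM, Lef1, a Wnt pathway factor of lymphoid progenitors, at 3.49, 81.4, 1.97 and 30.01 CPM, and Pou2af1, a coactivator in B cells, at 10.9, 113, 2.57 and 30.7 CPM. In these, replicate 2 was highest and replicate 3 lowest.

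Among genes of large spread, 1 order of the libraries was the most frequent. Of 1383 genes with an SD over 0.5 among the 13844 averaging 1 CPM or more, 372 (26.9%) ran from replicate 2 through 4 and 1 to 3, 1 of 24 possible orders, as did 5.86% of the other 12461 genes averaging 1 CPM or more. This order was picked from these data, and the difference in share was not tested. Replicates 3 and 4 differed over 2-fold for 189 of the 9135 genes, of which 178 were higher in replicate 4, and replicates 2 and 3 for 188, of which 166 were higher in replicate 2. Replicates 2 and 4 were the most alike by this measure, with 107 genes.

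B cell genes had the widest range of the lists other than the Y-linked check. Of 18 members 12 were detected, where 51.3% of protein-coding genes were, with a median of 21.8 TPM, or 8.799 TPM without replicate 2. Ighm, the heavy chain of IgM, had 783, 4136, 237 and 1654 CPM, a 17.4-fold range. Pax5 and Ebf1, the factors that commit cells to the B lineage, had 10.7, 123, 4.22 and 35.4 CPM and 16.2, 183, 6.06 and 52.1 CPM. The surrogate light chain gene Igll1, made by B cell precursors, had 8.197, 106, 3.58 and 32.3 CPM, and the recombinase gene Rag1 29.6, 197, 9.45 and 50.5 CPM. In all of these replicate 2 was far above the others and replicate 3 was lowest.

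The receptor subunit Cd79a followed with 12.7, 83.7, 6.95 and 28.4 CPM, while Cd79b (31.96, 52.3, 35.2 and 34.8 CPM) and Cd37 (74.7, 97.3, 76.3 and 98.2 CPM) were more even. Replicate 2 was highest for 14 of 15 B cell genes averaging 1 CPM or more and replicate 3 lowest for 13, and 13 of the 15 had an SD over 0.5 (86.7%, against 9.99% of all genes). The mean log2 level of the list ranged over 3.28, and over 2.15 without replicate 2. The summed level of the list was 985.4, 5052, 387 and 2041 CPM, and Ighm took most of these counts. Plasma cell genes moved alike, with Igkc at 596, 2272, 100.5 and 270.1 CPM and Jchain, which joins IgM and IgA subunits, at 169, 415, 49.8 and 159 CPM, and their range of 2.46 in mean log2 level was 1.36 without replicate 2 and 1.48 without replicate 3. Reads of immunoglobulin variable segments can be split between near-identical genes, so levels of single variable segments, which are not given here, are uncertain. The share of B cells in each sample was not measured, and its part in these values was not tested.

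Several genes of antigen presentation on class II molecules also stood highest in replicate 2. Cd74 had 57.2, 543, 19.98 and 202 CPM and H2-Ab1, the beta chain of I-A, 41.9, 219, 19.98 and 107 CPM. Further class II genes were added after their values were seen: H2-Aa, the alpha chain of I-A, had 32.4, 279, 10.8 and 101 CPM, H2-Eb1, the beta chain of I-E, 23.1, 218, 7.39 and 76.7 CPM, and Ciita, the coactivator of class II promoters, 6.07, 41.01, 1.94 and 16.1 CPM. The chaperone genes of class II loading were more even, with H2-DMa at 84.3, 106, 88.3 and 95.6 CPM, H2-DMb1 at 15.6, 29.5, 16.1 and 22.1, H2-Oa at 11.8, 15.4, 10.7 and 11.98 and H2-Ob at 59.7, 90.2, 37.8 and 65.6 CPM, while H2-DMb2 varied more, with 2.7005, 6.86, 1.71 and 5.66 CPM. Replicate 2 was highest in each of these genes and replicate 3 lowest in all but H2-DMa and H2-DMb1, for which replicate 1 was lowest.

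Class II promoters are known for an arrangement of short boxes, the last of which, the Y box, is bound by NF-Y through the letters GATTGG or, on the other strand, CCAATC. The 250 bases before the annotated start are shown for 2 genes with a wide spread between the WT libraries, H2-Aa and H2-Eb1, and for 2 with a smaller one, H2-Oa and H2-Ob, 5′ to 3′ on the strand of the gene, with the matched letters in capitals. They come from RefSeq on GRCm38.p6, at chr17:34287824-34288073 (minus strand), chr17:34305617-34305866, chr17:34092129-34092378 and chr17:34238655-34238904 (plus strand).
H2-Aa: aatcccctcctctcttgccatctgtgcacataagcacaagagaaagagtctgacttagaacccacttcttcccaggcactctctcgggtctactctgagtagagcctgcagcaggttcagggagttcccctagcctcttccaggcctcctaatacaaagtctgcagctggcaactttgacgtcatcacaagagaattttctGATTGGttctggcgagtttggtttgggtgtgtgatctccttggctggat
H2-Eb1: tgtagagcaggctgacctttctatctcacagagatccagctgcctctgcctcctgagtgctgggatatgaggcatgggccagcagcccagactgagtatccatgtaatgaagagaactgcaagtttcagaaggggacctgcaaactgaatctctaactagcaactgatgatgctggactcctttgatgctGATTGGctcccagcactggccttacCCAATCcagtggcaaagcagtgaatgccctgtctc
H2-Oa: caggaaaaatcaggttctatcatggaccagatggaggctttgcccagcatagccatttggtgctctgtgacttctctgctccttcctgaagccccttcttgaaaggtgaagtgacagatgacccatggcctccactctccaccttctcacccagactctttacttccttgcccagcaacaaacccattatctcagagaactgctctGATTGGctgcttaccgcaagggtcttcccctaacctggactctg
H2-Ob: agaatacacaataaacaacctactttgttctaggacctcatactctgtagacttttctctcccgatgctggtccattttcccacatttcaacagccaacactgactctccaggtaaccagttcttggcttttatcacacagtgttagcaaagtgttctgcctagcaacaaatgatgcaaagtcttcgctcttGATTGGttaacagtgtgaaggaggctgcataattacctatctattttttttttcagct

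These 4 windows were picked from 7 class II genes with an entry, and each held the letters, H2-Eb1 at 2 places. The match began 49 bases before the start in H2-Aa, 60 and 35 in H2-Eb1, 44 in H2-Oa and 58 in H2-Ob. Of 32851 promoters of the same length, 14.6% held the letters on either strand. H2-DMb1 and H2-DMb2 also held them, 62 and 91 bases before the start, while H2-DMa held none before its first annotated start and 1 match 199 bases before its second. The match is a description of these letters, and binding was not measured.

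Replicate 2 stood over 2-fold above all other libraries for 36 of the 9135 protein-coding genes, and over 2-fold below all of them for none. Besides Xcr1, Rag1, Pou2af1, Ebf1, Pax5 and Igll1, those furthest above included Irf4, a factor of plasma cells and dendritic cells, at 8.8003, 51.3, 2.85 and 14.1 CPM, and Cecr2, a bromodomain remodelling factor, at 13.1, 116, 6.44 and 37.3 CPM. Lars2, the mitochondrial leucyl-tRNA synthetase gene, was also here with 81.7, 289, 58.9 and 48.8 CPM, and the same library was highest for the ribosomal RNA gene CT010467.1. The part of ribosomal RNA in the value of Lars2 was not tested. Mpo, the endothelial and stem cell sialomucin Emcn (19.4, 7.35, 14.4 and 14.8 CPM) and the sphingosine phosphate receptor S1pr3 (17.3, 9.04, 20.8 and 17.2 CPM) were among the genes furthest below.

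Replicate 4 stood above all others by over 2-fold for 17 genes. They were led by myeloid and basophil genes and by immediate early genes: Fcgr3, a low-affinity IgG receptor, with 12.4, 14.3, 9.99 and 40.2 CPM, Prss34, and Ly6c2, a monocyte antigen, with 6.48, 33.6, 15.6 and 85.5 CPM. The chemokine gene Ccl3 had 39.3, 16.7, 29.6 and 95.3 CPM, the phosphatase gene Dusp1 525, 571, 400.4 and 1310.3 CPM and Jund 472, 521, 435 and 1239 CPM. Below the others lay 3 genes by over 2-fold, Hist1h4m, Vill, a villin-like gene (27.1, 22.01, 61.3 and 2.92 CPM), and Htatip2, with 20.4, 15.1, 13.8 and 0.959 CPM. Replicate 4 had the fewest counts, 20990446, and after all libraries were thinned to that depth 12709 genes were detected in all 4.

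Replicate 3 stood over 2-fold below all other libraries for 39 genes and above them for 2, and it was also the library near 0 for Y-linked genes. Vill was furthest above, followed by Csf2rb2, a receptor chain for interleukin 3 (8.896, 21.5, 46.2 and 20.4 CPM). Selp, the P-selectin gene of platelets and endothelium, had 41.02, 32.4, 102 and 56.3 CPM, and the matrix gene Emilin2 31.7, 60.5, 115 and 48.1 CPM. Csf2rb2 is a close copy of Csf2rb (66.8, 82.3, 136 and 87.2 CPM), so reads could be split between them.

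Replicate 1 was distinguished by Slc15a2, a peptide transporter, with 99.8, 26.9, 6.57 and 13.2 CPM, and by the macrophage genes Mrc1, the mannose receptor, with 43.1, 16.9, 6.63 and 17.3 CPM, and Vcam1, with 129, 22.9, 12.3 and 69.3 CPM. Over the macrophage list replicate 1 was highest for 5 of the 15 members averaging 1 CPM or more and replicate 2 for 9. Replicate 1 lay over 2-fold above the others for 2 of the 9135 genes and below for 9. Among the lowest were Fbp1, a gluconeogenesis enzyme gene (7.15, 26.4, 37.5 and 35.95 CPM), the inflammasome gene Nlrp3 (5.31, 15.2, 14.6 and 32.5 CPM), Ly6c2, the myeloid progenitor gene Ms4a3 (13.2, 31.3, 37.7 and 64.04 CPM) and Trem1 (4.96, 12.1, 11.7 and 12.9 CPM).

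**Figure D4:**
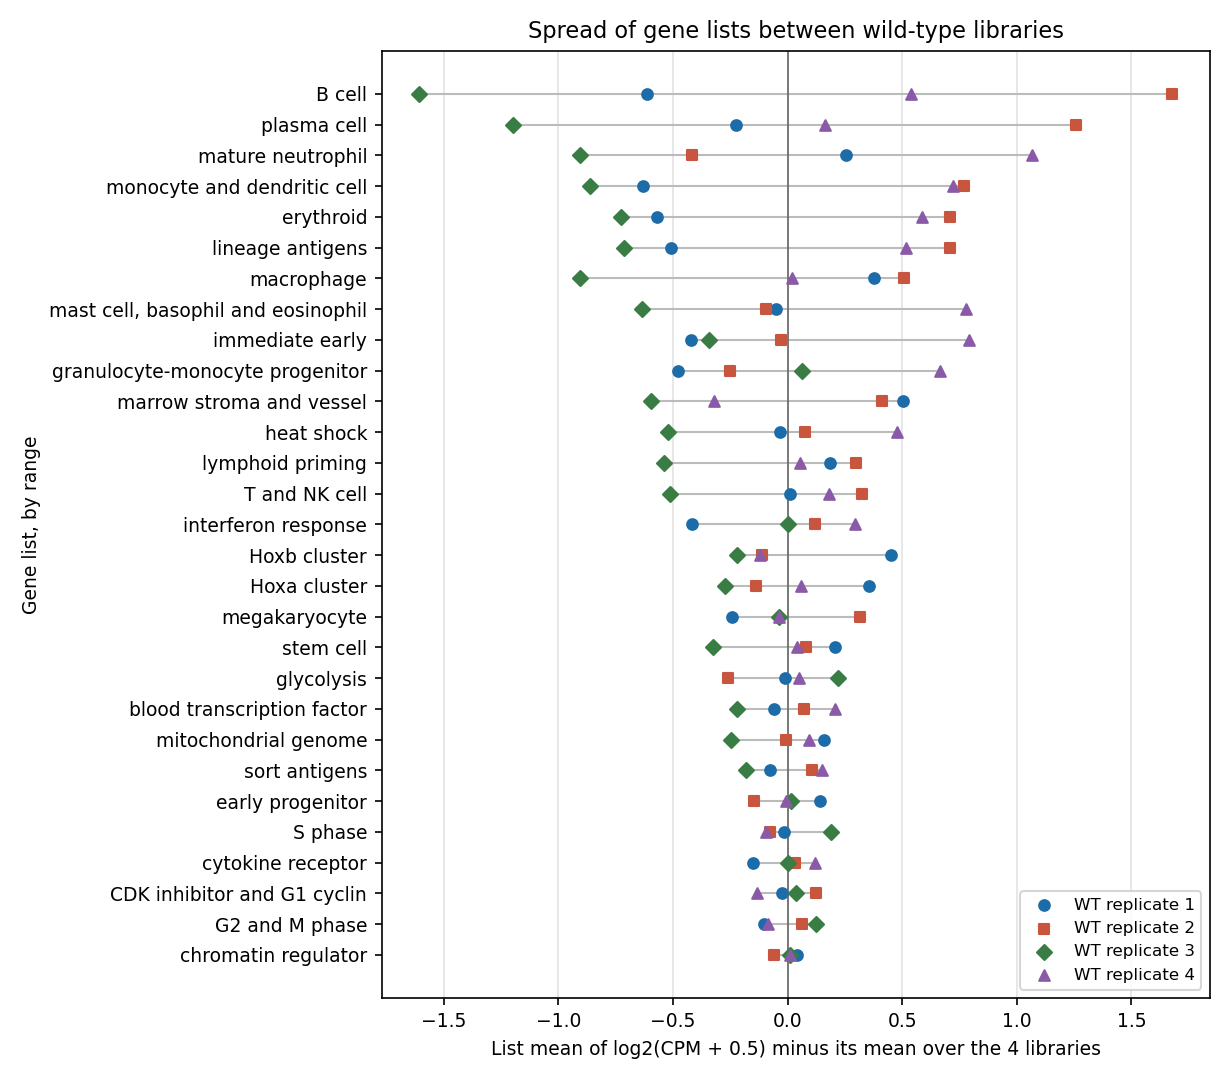
Mean log2(CPM + 0.5) of each gene list in the 4 WT libraries, centred on the list's own mean, lists ordered by range; each marker is 1 library. The B cell list spans 3.28, from replicate 3 to replicate 2 (2.15 without replicate 2), and the chromatin regulator list spans 0.10.

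**Figure D5:**
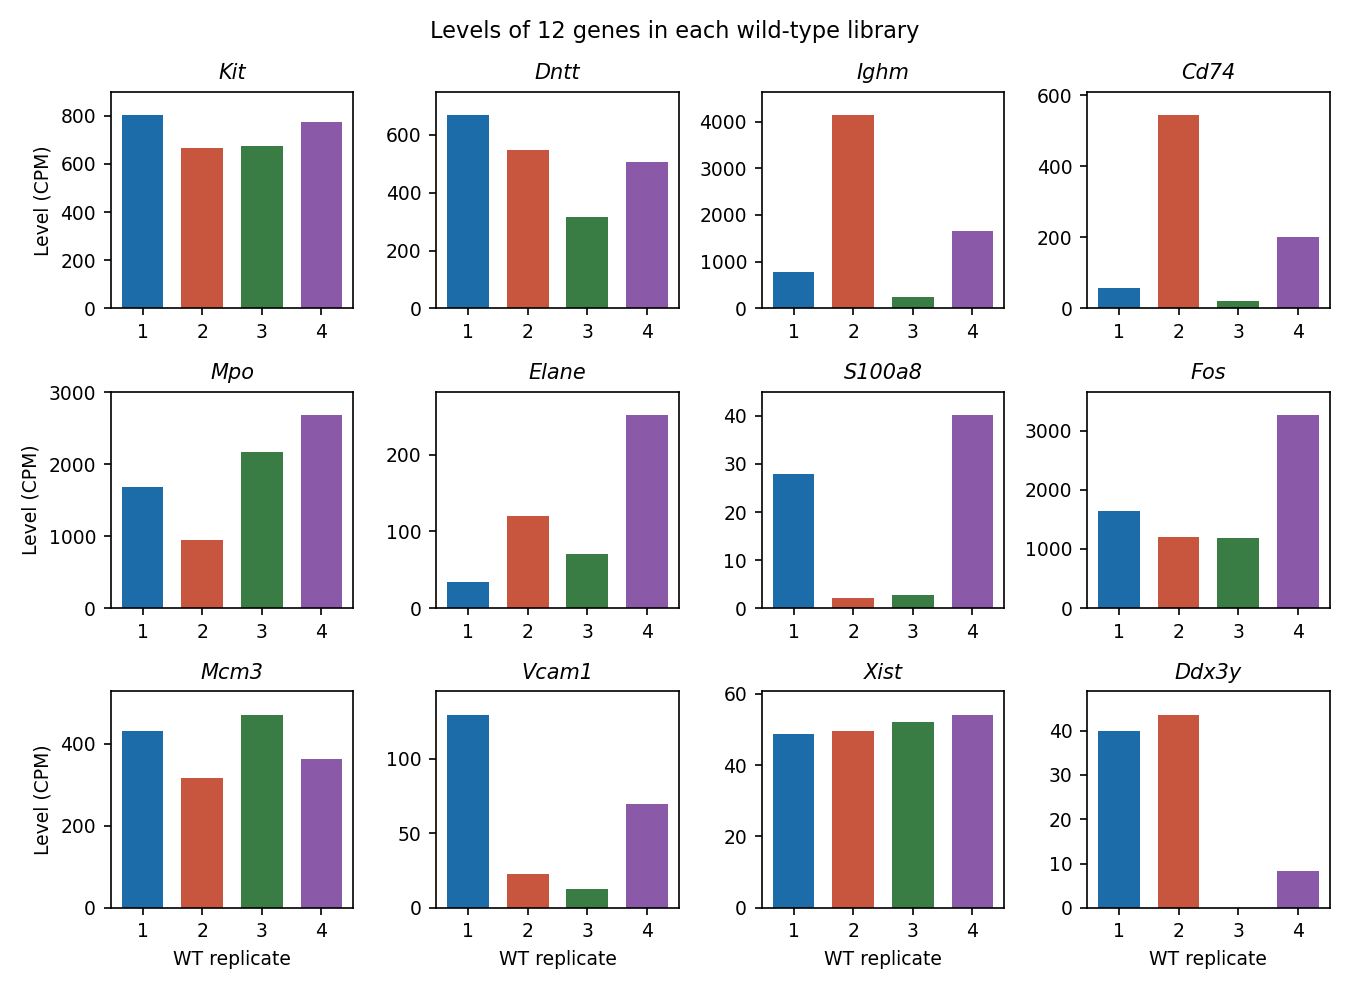
Level in CPM (linear axes from 0) of 12 genes in the 4 WT libraries, 1 bar per library. Kit and Xist are even, Ighm and Cd74 peak in replicate 2, Elane and Fos in replicate 4, Vcam1 in replicate 1, S100a8 in replicates 1 and 4, and Ddx3y is near 0 in replicate 3.

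Values of the other genotypes are set beside the WT range for examples of the 31 lists, without a test. Summed early progenitor levels were 7700.0 to 9633 CPM in WT, 7949.7 to 8524 in KO and 7975 to 8787 in Tg. The B cell list ran from 387 to 5052 CPM in WT, 1519.8 to 6226 in KO and 266 to 427 in Tg. Granulocyte-monocyte progenitor genes ran from 3109.5 to 6359 CPM in WT, 6466 to 7876 in KO and 7532 to 29107 in Tg. By mean log2 level the same list ran from 5.55 to 6.69 in WT, 6.68 to 6.86 in KO and 6.83 to 8.31 in Tg. WT and KO thus overlapped narrowly by mean log2 level and did not overlap by summed level. Single genes weigh on the sums. In WT, Mpo took 30.5% to 46.6% of this list and Ighm 61.3% to 81.9% of the B cell list.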

How the data were processed

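The values used are the deposited raw counts per gene symbol. Per the submitters' processing notes the tools were FastQC, Trimmomatic, STAR and HTSeq and the build mm10. Tool versions, the annotation, the strand setting and filters were not given in the sources used. The members and gene lists were chosen with earlier results of these data known. CPM was computed with edgeR 4.0.16 (R 4.3.3) from TMM factors over all 11 libraries, and TPM from merged exon lengths of GENCODE M21 (GRCm38), matched for 53670 of 55291 symbols, 378 of them through RefSeq synonyms. Rn7sk alone takes 146311 TPM, which lowers the TPM of all other genes. A gene was detected at 1 CPM or more in all 4 WT libraries. Spread is the SD of log2(CPM + 0.5). Results are descriptions, and no comparison was tested; Dixon's ratio was used only to pick out single libraries in the closing section. WT libraries held 20990446 to 31130936 counts. Named genes are the markers, Phf6, the X and Y check genes, the 20 highest by CPM and by TPM, the first 3 and the 4 highest members of each list and members at 0, the 10 largest and 10 smallest SDs, and per library the 10 genes furthest above and the 5 furthest below the others, predicted gene models left out. Class II genes beyond these were added after their values were seen, and some genes named by the rule are not reported here. The calculations were tested on simulated data; Python 3.11.15 and matplotlib 3.10.9 made the figures. Alternatives (other scaling, minima, pseudocounts, filters, length model, DESeq2 1.42.0 and leaving out each library) are given in the closing section.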

Additional observations from a re-analysis of the deposited data

Results flagged for a closer look

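Of 214 named genes and 30 lists, 10 genes and 1 list had a WT library far from the other 3, by a gap whose share of the group's range on the log2 scale passed Dixon's 95% critical value. Chance flags about 1 in 20 groups of this size, but many of these genes were named for their spread or for a library standing apart, so that rate does not hold for them.

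Replicate 2 was far above the others for the ribosomal RNA gene CT010467.1 at 5599 CPM and for Pdgfra at 0.277 CPM, a level near the counting floor, and far below them for Hsp90ab1 at 2272 CPM. Replicate 4 was far below for Hist1h4m at 0.623 CPM and Htatip2 at 0.959 CPM, and far above for Zfp36 at 2126 CPM. In replicate 1, Ifit3 at 0.5401 CPM and Trem1 at 4.96 CPM were far below the other libraries, while Ccnd2 at 476 CPM and the mean log2 level of the Hoxb cluster at 2.65 were far above. Replicate 3 was far below for Car2 at 282 CPM.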

How the results depend on the processing

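No paired analysis was possible because every result is a description of 1 group and comes from no test. The number of genes detected ran from 11636 at a minimum of 2 CPM to 13953 at 0.5 CPM, and was 12709 after thinning to the smallest library. The 20 most abundant genes held 6.05% of the counts of protein-coding genes alone. The number of genes with an SD over 1 was 244 with no filter on low counts and 122 with a filter of 2 CPM in 3 libraries, both of which take in more genes of low level, and 62 to 91 when 1 library was left out. The fitted biological variation (coefficient common to all genes) was 0.341 with no filter, 0.217 with the filter of 2 CPM in 3 libraries, 0.246 over autosomal protein-coding genes and 0.188 from DESeq2's median dispersion, and it ran from 0.281 (without replicate 2) to 0.339 (without replicate 4); the cause was not tested. Library totals and upper quartile factors each moved the mean of 10 of the 214 named genes by more than its SD, TMM over the WT libraries 11 and totals without mitochondrial genes 12, and DESeq2 size factors 0; Arl6ip1 went from 297 to 303 CPM by library totals. Replicate 4 was the shallowest library, and levels under 0.143 CPM are within its counting floor. The labels' gap on sex and batch, and the reads of both Xist and Y-linked genes in 3 libraries, leave the sources of the spread untested.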
